A study of Mus musculus with 18 samples.

Results

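The transcripts described are those of 10 mouse genes that carry or restrain the intracellular TGF-β signal: the receptor-regulated Smads Smad2 and Smad3, the common partner Smad4, the inhibitory Smads Smad6 and Smad7, the co-repressors Ski and Skil, the ubiquitin ligases Smurf1 and Smurf2, and the membrane adaptor Pmepa1. They were taken by gene symbol from a deposited table of 55450 genes, in which each had a single row, and all 10 were among the 21161 genes that passed the filter on low counts. RNA was sequenced from mouse embryonic fibroblasts (MEF), 18 libraries in 6 groups of 3. Every group was transiently transfected, with empty pcDNA3 vector, with Col1a1-miR-29b (human miR-29b-1 and EGFP driven by a rat Col1a1 promoter, with mRFP1 driven by SV40) or with CMV-miR-29b, the same plasmid with a CMV promoter. TGF-β at 20 ng/ml was added to a set of each kind of cell 6 h after transfection and left on for 24 h, and the other set had none. The libraries of a group were described as repeated experiments on MEF from a cell bank. The plasmids were given at equal moles, so the larger Col1a1 plasmid brought more DNA by mass, and transfected cells were not sorted from untransfected ones.

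TGF-β binds a pair of serine/threonine kinase receptors, and the type I receptor phosphorylates Smad2 and Smad3, which join Smad4, enter the nucleus and switch target genes on or off. The same signal induces its own brakes. Smad7 occupies the receptor and brings Smurf ligases to it, Smad6 acts mainly on the BMP branch, Ski and Skil (also called SnoN) hold Smad complexes in a repressive state, and Pmepa1 keeps Smad2 and Smad3 from the receptor. In fibroblasts this loop limits how long matrix genes stay induced. In bulk RNA, a change in the share of cells that respond and a change in transcripts per cell cannot be told apart.

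Total counts per library ran from 65898017 to 80332633, and counts of the 10 genes ran from 262 (Smad6) to 11613 (Smurf2) per library. Log counts of libraries in the same group correlated at 0.972 to 0.98 across 13912 genes. Of 8 fibroblast markers, 6 had a median of at least 1 CPM (CPM, the usual count unit scaled for library size, here with edgeR's TMM factors), led by Col1a1, Col1a2 and Vim. Thy1 did not exceed 0.114 CPM in any library and Lum was at 0 counts in all 18. All 4 epithelial markers had medians under 1 CPM, and among 3 leukocyte markers Cd68 alone passed that level. Mir29b-1 had 0 counts in all empty vector libraries. It had 0 to 1 counts in untreated and 2 to 6 in TGF-β-treated Col1a1-miR-29b libraries, and 110 to 309 and 203 to 293 in those with CMV-miR-29b. Poly(A) libraries read precursor transcripts and not the mature miRNA.

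Because both test plasmids encode miR-29b, the 3′ UTRs of the 10 genes were searched for the 7 bases complementary to its seed (bases 2 to 8, in capitals), which the 3 mature miR-29 forms share. The mature sequences are from RefSeq.
mmu-miR-29a-3p: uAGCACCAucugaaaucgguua
mmu-miR-29b-3p: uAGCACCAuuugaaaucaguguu
mmu-miR-29c-3p: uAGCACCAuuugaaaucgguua
Ski alone held a match, at base 1069 of its 3266-base 3′ UTR, in the window chr4:155156256-155156282 (GRCm38, minus strand), shown with the match in capitals.
Ski 3′ UTR: acatcccctcTGGTGCTtggttgaaca
The match was not followed by A. Of 14338 tested genes with an annotated 3′ UTR, 2100 (14.6%) held at least 1 such match, and their UTRs had a median of 2401 bases against 1067 for all. The other 9 genes held none in UTRs of 448 bases (Smad6) to 6233 bases (Smad2).

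Promoter sequence from RefSeq, in windows of 300 bases that end just past the gene start, was at hand for Ski, Smurf1, Smad3, Smad6 and Smurf2. Then 3 motifs bound by Smad proteins were searched on both strands. The palindromic Smad element GTCTAGAC was present for Smad6 and for 0.213% of all 32851 promoters. It started 4 bases before the gene start of Smad6 and is shown in capitals from chr9:64022045-64022074 (GRCm38.p6, minus strand).
Smad6 promoter: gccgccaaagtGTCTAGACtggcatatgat
The CAGA box AGCCAGACA was in none of the 5 promoters and in 0.387% of all. Its core CAGACA, which the longer box contains, was in those of Smurf1 and Smurf2 and in 21% of all.

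In GRCm38 coordinates Pmepa1 lies at chr2:173224458-173276533, Skil at chr3:31095058-31122573, Ski at chr4:155154075-155222535, Smurf1 at chr5:144876495-144965847 and Smurf2 at chr11:106820066-106920715. Among the Smads, Smad3 (chr9:63646767-63757994) and Smad6 (chr9:63953076-64022059) lie on chromosome 9, and Smad4 (chr18:73639009-73703780), Smad7 (chr18:75367529-75395935) and Smad2 (chr18:76241580-76310963) lie on chromosome 18. The genes that overlap Smad4, Smurf1 and Smurf2 held at most 9, 2 and 1 counts in any library, and the other 7 overlap none.

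Levels between genes were compared in FPKM, which is scaled for transcript length, over the 16 libraries whose FPKM column could be matched to a sample. In untreated empty vector cells the most abundant of the 10 was Smad4, at 20.2 ± 1.95 FPKM (SD, n = 3), beside Smurf2 at 18.5 ± 1.07 FPKM, and the ranges of these neighbours overlapped. Smurf1 followed at 15.5 ± 0.596 FPKM. Ski at 11.7 ± 4.36 FPKM overlapped with Smad3 at 10.4 ± 0.854 FPKM. Skil at 5.16 ± 0.945 FPKM overlapped with Smad2 at 4.32 ± 0.093 FPKM, so that Smad3 transcripts exceeded those of Smad2 in every library of the group. At the low end stood Smad7 at 2.97 ± 0.798 FPKM, Pmepa1 at 1.95 ± 0.105 FPKM and Smad6 at 1.26 ± 0.096 FPKM. Smad6 was the lowest of the 10 by mean FPKM in all 6 groups. With TGF-β, Pmepa1 moved from the ninth place to the fourth in empty vector cells, at 16.1 ± 1.04 FPKM, where it overlapped with Ski.

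**Figure D1:**
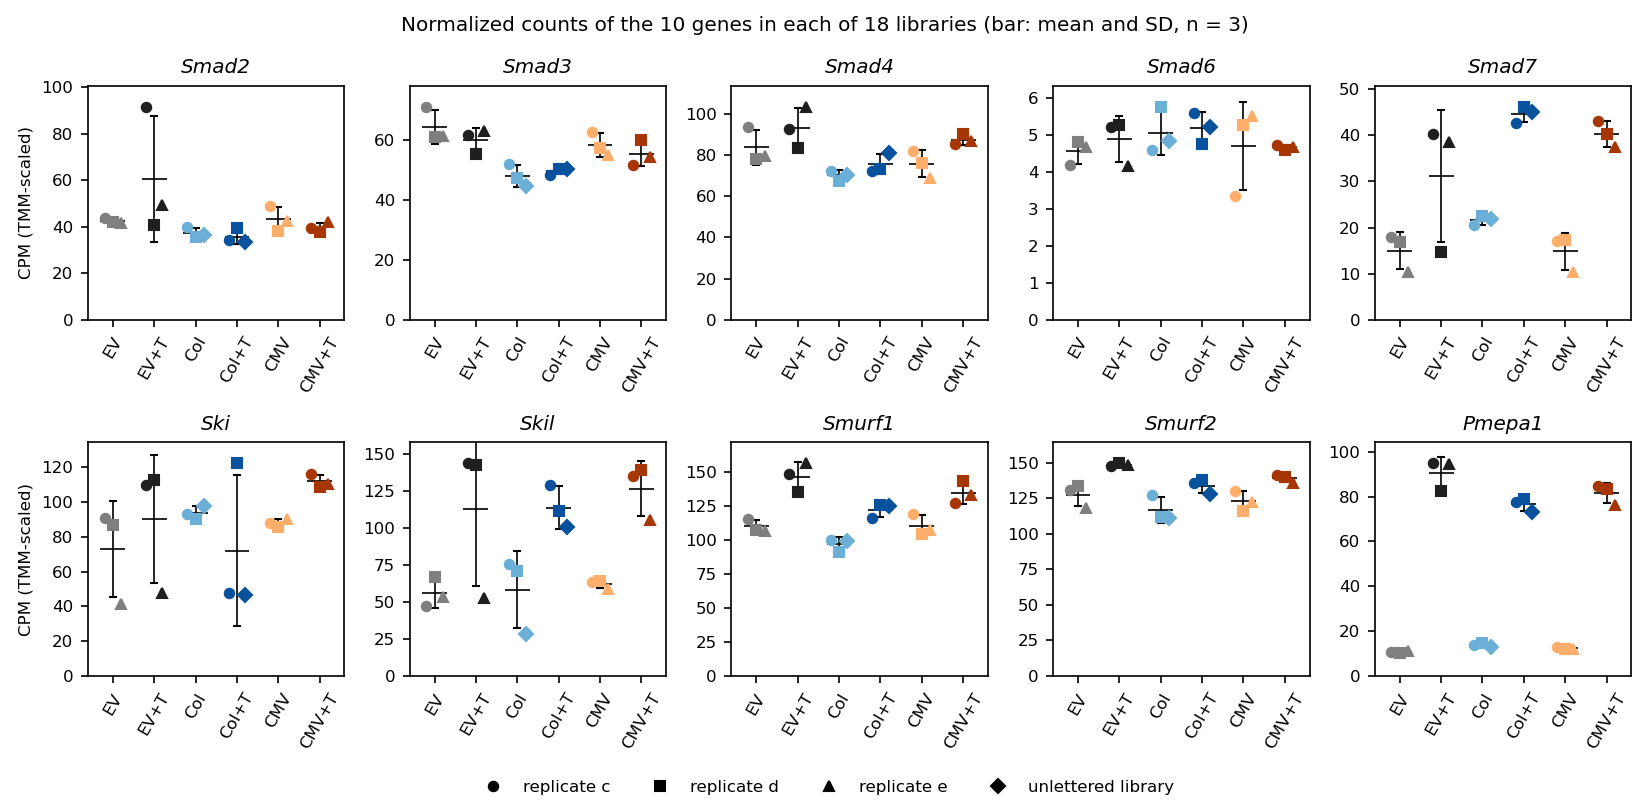
TMM-scaled CPM (y axes, from 0, a scale for each gene) of the 10 genes in the 6 groups (x axes; EV, empty vector; Col, Col1a1-miR-29b; CMV, CMV-miR-29b; +T, with TGF-β), with a point for each library and the mean and SD of 3 libraries as lines. Pmepa1 rose from 10.1 to 14.7 CPM without TGF-β to 73 to 94.8 CPM with it, while Smad2, Smad7, Ski and Skil each had libraries far from the others of their group.

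The first question was which of these genes TGF-β changed, and whether it did so with each vector. Pmepa1 rose most in all 3 kinds of cell. Its normalized counts in empty vector cells were 10.8, 10.1 and 11.2 CPM without TGF-β (replicates c, d and e) and 94.8, 82.7 and 94.7 CPM with it. In Col1a1-miR-29b cells they were 13.7, 14.7 and 13.1 CPM without (c, d and the unlettered library) and 77.6, 79.0 and 73 CPM with TGF-β, and in CMV-miR-29b cells 13.1, 12.2 and 11.9 CPM without and 84.7, 83.6 and 76.4 CPM with it. The treated and untreated libraries lay far apart with every vector. The log2 fold change of Pmepa1 was 3.08 (standard error, SE, 0.07, adjusted p = 1.44e-12) in empty vector cells, or 8.46-fold. It was 2.47 (SE 0.07, adjusted p = 1.97e-11) with Col1a1-miR-29b and 2.72 (SE 0.07, adjusted p = 7.41e-12) with CMV-miR-29b. Here and below adjusted p is from edgeR's quasi-likelihood test over all 18 libraries, Benjamini-Hochberg adjusted over 21161 genes, and a gene was called at an adjusted p under 0.05. Among 13912 genes with a mean of at least 1 CPM, Pmepa1 ranked 19, 25 and 18 by log2 fold change in the 3 kinds of cell.

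The brake on the receptor, Smad7, was higher with TGF-β by a similar factor in each kind of cell, but its libraries were uneven. With empty vector, Smad7 stood at 17.9, 16.9 and 10.3 CPM without TGF-β and at 40.2, 14.7 and 38.6 CPM with it. Treated replicate d lay within the untreated range, so the groups overlapped. In Col1a1-miR-29b cells the values were 20.5, 22.6 and 21.7 CPM without and 42.6, 46.1 and 45.1 CPM with TGF-β, the tightest separation of the 3. In CMV-miR-29b cells they were 17, 17.4 and 10.3 CPM without and 43.1, 40.2 and 37.5 CPM with it. The log2 fold change was 1.05 (SE 0.30, adjusted p = 0.0495) in empty vector cells, 1.04 (SE 0.30, adjusted p = 0.0631) with Col1a1-miR-29b and 1.44 (SE 0.30, adjusted p = 0.00876) with CMV-miR-29b, so it was called in the first and the last. The empty vector call lay at the threshold: it was kept in 2 of 18 fits that left out a library, and over all alternatives its adjusted p ran from 0.000841, without treated replicate d, to 0.259. The Col1a1-miR-29b rise was called by DESeq2 (adjusted p = 0.00434) and when the fit held only the 6 libraries compared. It was also called in 2 of 18 fits that left out a library, treated replicate d or untreated replicate e of the empty vector. The CMV-miR-29b call was lost without untreated replicate e (adjusted p = 0.0504). Smad6, the other inhibitory Smad, was at 3.34 to 5.74 CPM in all 18 libraries, and its log2 fold changes of 0.10, 0.04 and −0.01 lay within their SEs of 0.17.

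The co-repressors Skil and Ski differed. Skil read 47.0, 66.9 and 53.6 CPM in untreated and 143, 142 and 52.3 CPM in treated empty vector cells, where treated replicate e stayed at the untreated level. In Col1a1-miR-29b cells Skil was at 75.3, 70.8 and 28.6 CPM without and 129, 111 and 100.5 CPM with TGF-β. In CMV-miR-29b cells it was at 63.3, 64.1 and 59.0 CPM without and 135, 139 and 105 CPM with it, and in both miR-29b vectors every treated library was above every untreated one. The log2 fold changes of Skil were 1.01 (SE 0.34, adjusted p = 0.111), 0.96 (SE 0.34, adjusted p = 0.164) and 1.02 (SE 0.34, adjusted p = 0.119), and none was called. Without treated replicate e the empty vector value was 1.34 (adjusted p = 0.0132), which passed the threshold. In CMV-miR-29b cells Skil was called in 2 of 9 alternatives, with only the 6 libraries compared and with replicate letters as a block. It was also called there in 2 of 18 fits that left out a library. Those libraries were of other vectors: treated empty vector replicate e and the unlettered, untreated Col1a1-miR-29b library.

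Ski, which binds the Smad complex in the same way, had 2 levels among its libraries. In empty vector cells it was at 90.7, 86.7 and 41.3 CPM without and 110, 113 and 47.8 CPM with TGF-β, replicate e being low in both. In Col1a1-miR-29b cells the untreated libraries were at 93.3, 90.4 and 97.7 CPM and the treated ones at 47.4, 122 and 46.3 CPM. In CMV-miR-29b cells no library was low, with 88.1, 85.8 and 90.4 CPM without and 116, 109 and 111 CPM with TGF-β. The log2 fold changes of Ski were 0.30, −0.38 and 0.34 with a SE of 0.37 each, and none was called. That SE rests on the spread in all 6 groups. In CMV-miR-29b cells the treated and untreated libraries did not overlap. Ski was called there in 1 of 9 alternatives, when the fit held only the 6 libraries compared (adjusted p = 0.0154). Without the high treated replicate d, the Col1a1-miR-29b value was −0.998 (adjusted p = 0.145).

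The Smurf ligases, which tag receptors and Smads for degradation, had smaller differences and close replicates. Smurf1 rose from 115, 107 and 107 CPM to 148, 135 and 156 CPM in empty vector cells, from 100.1, 91.3 and 99.4 CPM to 116, 125 and 125 CPM with Col1a1-miR-29b, and from 119, 104 and 107 CPM to 127, 143 and 133 CPM with CMV-miR-29b. No treated library overlapped with an untreated one in any of these. The log2 fold change of Smurf1 was 0.42 (SE 0.07, adjusted p = 0.000991), 0.33 (SE 0.07, adjusted p = 0.00785) and 0.28 (SE 0.07, adjusted p = 0.0197), called each time. Of 9 alternatives, the empty vector call was kept in 9 and each miR-29b vector's call in 6 (adjusted p up to 0.124 and 0.123). Both were lost with replicate letters as a block and with offsets for length and GC content. The Col1a1-miR-29b call was also lost with the lettered libraries only, and the CMV-miR-29b call with only the 6 libraries compared. With CMV-miR-29b it was lost, too, in 4 of 18 fits that left out a library (replicates d and e, treated or untreated). Smurf2 was at 131, 133 and 118 CPM without and 148, 149 and 148 CPM with TGF-β in empty vector cells, and did not overlap. There the log2 fold change of Smurf2 was 0.22 (SE 0.06, adjusted p = 0.0424), a call kept in 2 of 18 such fits with adjusted p from 0.0224 to 0.247 over the alternatives. With Col1a1-miR-29b it was 0.20 (SE 0.06, adjusted p = 0.0909) and with CMV-miR-29b 0.18 (SE 0.06, adjusted p = 0.109), in both without overlap of the libraries. The gap was narrow with Col1a1-miR-29b, from 127.5 CPM (untreated replicate c) to 127.7 CPM (the unlettered treated library). With CMV-miR-29b it was from 130 to 136 CPM.

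The signal-carrying Smads did not pass the threshold with TGF-β in any kind of cell. Smad3 had log2 fold changes of −0.10, 0.05 and −0.07 (SE 0.08 each) and Smad4 of 0.15, 0.11 and 0.21 (SE 0.09 each). The 95% confidence interval of Smad3 in empty vector cells was −0.27 to 0.07. Smad2 was at 43.7, 42.1 and 41.4 CPM without and 91.4, 40.8 and 49.2 CPM with TGF-β in empty vector cells, where treated replicate c was high and d lay below the untreated libraries. Its log2 fold change was 0.51 (SE 0.20, adjusted p = 0.192). That value was 0.08 without treated replicate c, and 0.72 (adjusted p = 0.0248) without treated replicate d.

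Counted together, 4 of the 10 genes were called higher in empty vector cells (Pmepa1, Smad7, Smurf1 and Smurf2), where 3.88% of all 21161 genes were. The count was 2 (Pmepa1 and Smurf1) against 3% of all genes with Col1a1-miR-29b, and 3 (Pmepa1, Smad7 and Smurf1) against 3.08% with CMV-miR-29b. None of the 10 was called lower, where 425, 280 and 395 of all 21161 genes were, so few or none of 10 would be at that share. The Smad7 and Smurf2 calls in empty vector cells were lost when the fit held only the 6 libraries compared or scaled libraries by their total counts. Among the 10020 genes with a mean of at least 10 CPM, which include 9 of the 10, the shares called higher were 6.48%, 4.76% and 4.83%. The shares of those genes called lower were 3.09%, 2.04% and 3.03%. The median log2 fold change of the 10 was 0.36, 0.15 and 0.25, where that of all genes lay within 0.01 of 0. The libraries did not overlap for 3, 5 and 7 of the 10, against 21%, 21.9% and 20.9% of all genes.

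**Figure D2:**
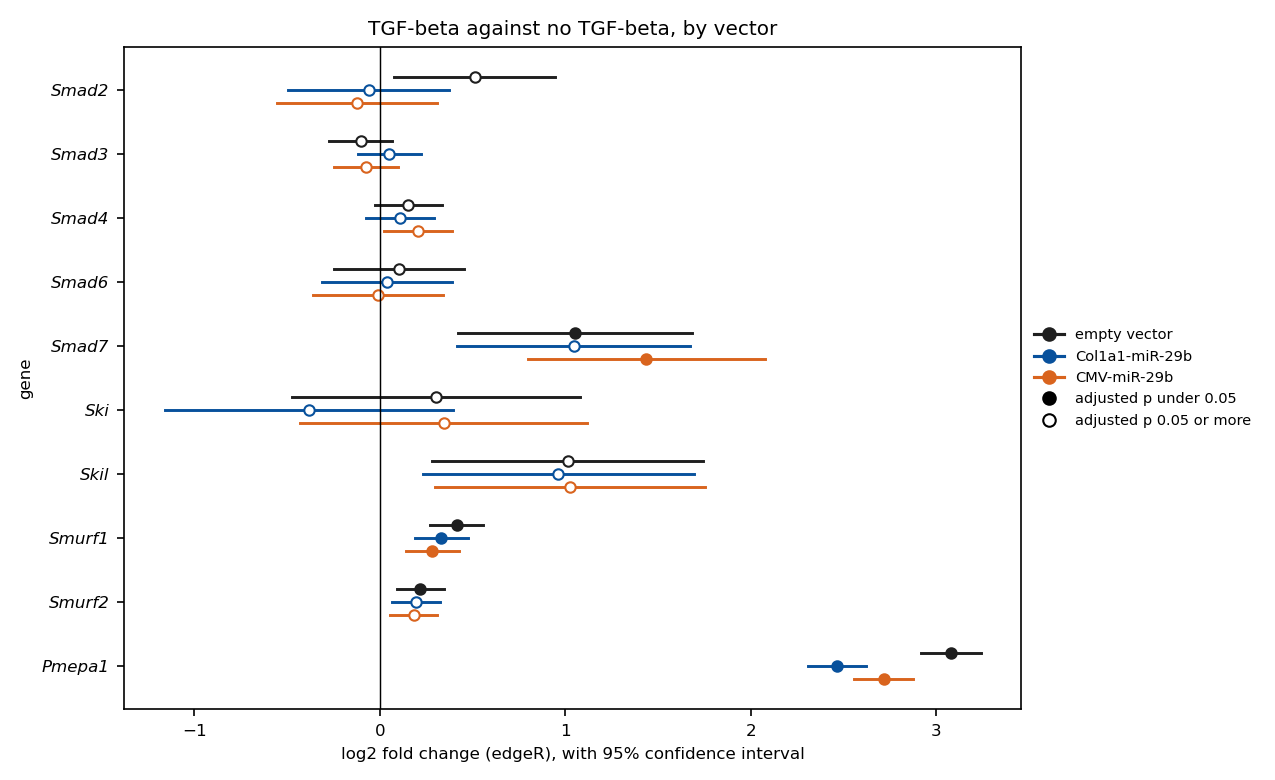
Log2 fold change with TGF-β against without (x axis, edgeR) of each gene (y axis), with 95% confidence intervals, in empty vector, Col1a1-miR-29b and CMV-miR-29b cells (colours). Filled points have an adjusted p under 0.05. Pmepa1 lies at 2.47 to 3.08 with narrow intervals, Smad7 at 1.04 to 1.44 and Skil near 1 with wide ones, and Smurf1 and Smurf2 near 0.2 to 0.4. Intervals of the other 5 cross 0, except those of Smad2 in empty vector cells (0.077 to 0.945) and Smad4 in CMV-miR-29b cells (0.025 to 0.389).

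The make-up of the Smad transcripts was followed as shares of the summed FPKM of the 5 Smads, a description with no test. Smad4 made up 51.5 ± 1.32% (SD, n = 3) in untreated empty vector cells, Smad3 26.6 ± 0.404%, Smad2 11.1 ± 0.661%, Smad7 7.53 ± 1.74% and Smad6 3.25 ± 0.49%. With TGF-β the share of Smad7 was 7.71% to 15.6% in the 3 empty vector libraries, against 5.56% to 8.84% without it. In CMV-miR-29b cells it was 17.3% to 19.9% against 6.06% to 9.43%, and in the 2 lettered libraries of each Col1a1-miR-29b group 21.8% and 22.6% against 11.5% and 13.3%. The ratio of inhibitory Smads (Smad6 and Smad7) to receptor-regulated Smads (Smad2 and Smad3) was 0.287 ± 0.047 (SD, n = 3) in untreated and 0.466 ± 0.124 in treated empty vector cells. It was 0.308 ± 0.056 and 0.714 ± 0.07 with CMV-miR-29b, and 0.483 and 0.87 as means of 2 libraries with Col1a1-miR-29b. All 8 treated libraries lay above the untreated libraries of their own vector in this ratio, the lowest of them, empty vector replicate d at 0.333, by a margin of under 0.01.

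**Figure D3:**
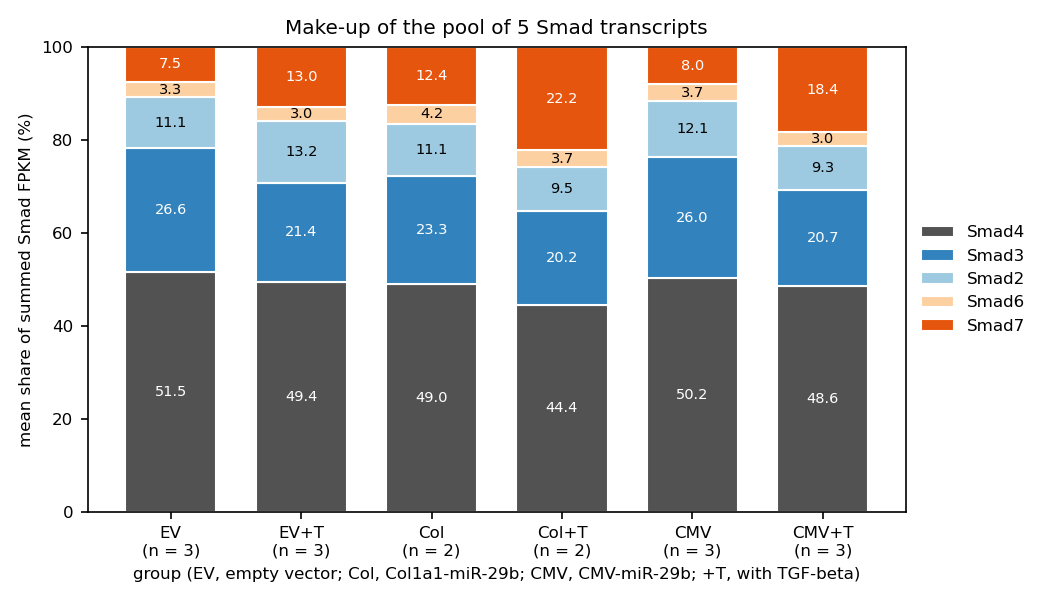
Mean share of each Smad in the summed FPKM of the 5 Smads (y axis, percent from 0 to 100) in the 6 groups (x axis, n = 3, or n = 2 for Col1a1-miR-29b), with the mean written in each bar. The Smad7 share goes from 7.5% to 13.0% with TGF-β in empty vector cells, from 12.4% to 22.2% with Col1a1-miR-29b and from 8.0% to 18.4% with CMV-miR-29b.

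The second question was whether the miR-29b vectors changed these genes against the empty vector. Both comparisons share the empty vector libraries, so they are not independent. In cells without TGF-β, Smad3 was at 52.1, 47.4 and 44.8 CPM with Col1a1-miR-29b and at 71.1, 61.2 and 61.4 CPM with empty vector. It was lower by a log2 fold change of −0.43 (SE 0.08, adjusted p = 0.00801), without overlap of the libraries. That call was kept in all 18 fits that left out a library. With the lettered libraries only, with or without replicate letters as a block, it was lost (adjusted p up to 0.0815 over the alternatives). Pmepa1 was higher by 0.37 (SE 0.07, adjusted p = 0.0087), at 13.1 to 14.7 CPM against 10.1 to 11.2 CPM, a call lost without Col1a1-miR-29b replicate d. These were 1 of 10 genes called lower, where 3.7% of all genes were, and 1 of 10 called higher, where 2.57% were. Smad4 at −0.26 (SE 0.09, adjusted p = 0.0881), Smurf1 at −0.18 (SE 0.07, adjusted p = 0.127) and Smad7 at 0.53 (SE 0.30, adjusted p = 0.335) were not called. The libraries did not overlap for 6 of the 10 genes, these 5 and Smad2 at −0.19 (adjusted p = 0.681), against 29% of all genes. With CMV-miR-29b none of the 10 was called, where 0.00473% of all genes, a single gene, was, with DESeq2 calling none of the 10 either, and 1 of the 10 (Pmepa1) had an unadjusted p below 0.05. The CMV-miR-29b values ran from −0.15 (Smad4) to 0.27 (Ski).

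With TGF-β the Col1a1-miR-29b cells had lower transcripts of 5 of the 10 genes, where 7.63% of all genes were called lower. None of the 10 was called higher, where 5.31% of all genes were. Among genes with a mean of at least 10 CPM the share called lower was 14.3%. Smad3 was at 48.6, 50.4 and 50.5 CPM against 61.8, 55.6 and 63.2 CPM with empty vector, a log2 fold change of −0.27 (SE 0.08, adjusted p = 0.0362). Smad4 was at 72.2, 73.4 and 81.1 CPM against 92.8, 83.6 and 103 CPM, a log2 fold change of −0.30 (SE 0.09, adjusted p = 0.0292). Smurf1 at −0.26 (SE 0.07, adjusted p = 0.0179) and Pmepa1 at −0.25 (SE 0.07, adjusted p = 0.0288) were lower by like amounts. In all of these the libraries of the 2 vectors did not overlap. The log2 fold change of Smad2 was −0.76 (SE 0.20, adjusted p = 0.0235), from 34.1, 39.4 and 33.6 CPM against 91.4, 40.8 and 49.2 CPM. Without the high empty vector replicate c, Smad2 was at −0.34 (adjusted p = 0.0679). Without that library, or without treated Col1a1-miR-29b replicate c, none of the 5 calls was kept, nor was any when the fit held only the 6 libraries compared.

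Smurf2 at −0.15 (SE 0.06, adjusted p = 0.115), Ski at −0.32, Smad6 at 0.09, Skil at 0.01 and Smad7 at 0.52 (SE 0.29, adjusted p = 0.293) were not called in Col1a1-miR-29b cells with TGF-β. All 3 Col1a1-miR-29b libraries of Smad7 lay above the highest empty vector library. In this comparison the libraries did not overlap for 7 of the 10 genes, against 30% of all genes. With CMV-miR-29b and TGF-β none of the 10 was called, where 0.00945% of all genes, 2 in number, were. DESeq2 called none of the 10 here, and 2 of the 10 (Smad2 and Pmepa1) had an unadjusted p under 0.05. The largest value was that of Smad2, −0.61 (SE 0.20, adjusted p = 0.276), which was −0.18 without empty vector replicate c and passed the threshold without empty vector replicate d (adjusted p = 0.0494).

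**Figure D4:**
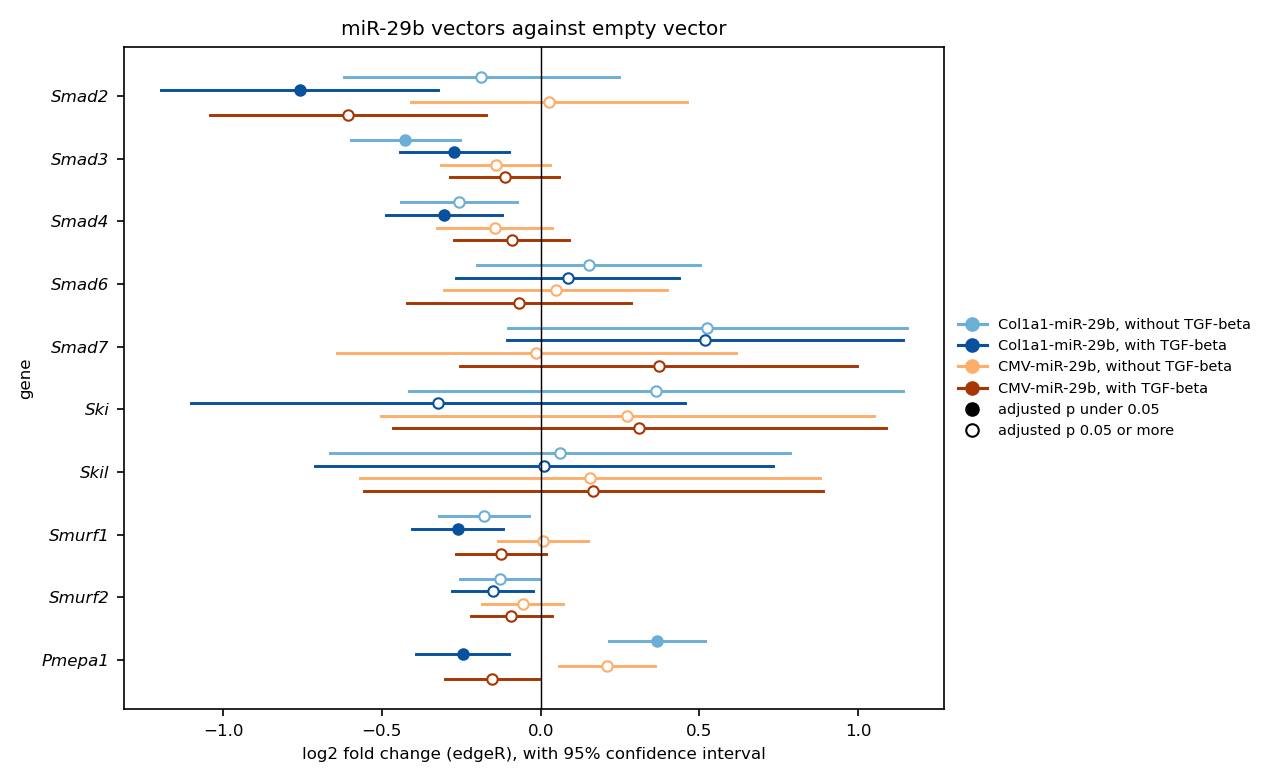
Log2 fold change of each miR-29b vector against empty vector (x axis, edgeR) for each gene (y axis), with 95% confidence intervals, without and with TGF-β (colours). Filled points have an adjusted p under 0.05. The filled points are Smad3 at −0.43 and Pmepa1 at 0.37 without TGF-β, and Smad2, Smad3, Smad4, Smurf1 and Pmepa1 between −0.76 and −0.25 with TGF-β, all for Col1a1-miR-29b.

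Ski, the gene with a match to the miR-29 seed, was not called in any of the 4 vector comparisons. Its log2 fold changes were 0.36 and −0.32 with Col1a1-miR-29b and 0.27 and 0.31 with CMV-miR-29b, without and with TGF-β, each with a SE of 0.37. Set beside it, the 2100 genes with a match had medians of −0.04 and −0.05 with Col1a1-miR-29b and −0.03 and −0.05 with CMV-miR-29b, and the 12238 genes without one had medians of −0.01, −0.01, 0.00 and −0.01.

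The third question was whether the response to TGF-β itself differed by vector, tested as the difference of the 2 fold changes in the same fit. None of the 10 genes was called with either vector by edgeR, where 0% of all genes were, with 961 genes (Col1a1-miR-29b) and 1129 (CMV-miR-29b) below an unadjusted p of 0.05. Pmepa1 responded less with Col1a1-miR-29b than with empty vector by 0.61 on the log2 scale (difference −0.61, SE 0.10, 95% confidence interval −0.82 to −0.40), with an unadjusted p of 1.65e-05 and an adjusted p of 0.175. DESeq2, which called 27 genes in this comparison, called Pmepa1 (adjusted p = 0.000478), and over all alternatives its adjusted p ran from 0.000478 to 0.693. With CMV-miR-29b the difference for Pmepa1 was −0.36 (SE 0.10, adjusted p = 0.922), and DESeq2, which called 19 genes there, did not call it. The differences of Smad2, −0.57 (SE 0.29) with Col1a1-miR-29b and −0.63 (SE 0.29) with CMV-miR-29b, carry the high empty vector replicate c. For Smad7 the difference was −0.01 with Col1a1-miR-29b, with a 95% confidence interval of −0.89 to 0.87 that is wider than a 1.5-fold difference either way. Intervals for Skil and Ski were wider still.

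Because several of these values turned on a single library, libraries that stood apart were counted, by a rule chosen after the values were seen. A library was counted where it lay at 0.6 or less of both others of its group, or at the inverse or more, while those 2 lay within 25% of each other. This held for 7 of the 60 pairs of gene and group (11.7%), in Smad2, Smad7, Ski and Skil, against 4.12% of 83472 pairs over the 13912 genes with a mean of at least 1 CPM. Ski in empty vector replicate e was at 0.466 of the mean of the other 2 without TGF-β and at 0.43 with it, and Skil in that treated replicate was at 0.367. Smad7 in treated empty vector replicate d was at 0.373 and Skil in the unlettered, untreated Col1a1-miR-29b library at 0.392. Smad2 in treated empty vector replicate c was 2.03-fold and Ski in treated Col1a1-miR-29b replicate d 2.6-fold the mean of the others. By the same rule, each of the 18 libraries stood apart for 1.2% to 1.53% of the 13912 genes. In the 7 pairs, the library that stood apart had 1141 to 8975 counts. As ratios of group medians, set by the middle library, the log2 rise of Skil with TGF-β was 1.41, 0.65 and 1.09, in the order of vectors above. That of Smad7 was 1.20, 1.05 and 1.25. For Smad2 the values were 0.22, −0.09 and −0.11, and for Ski 0.34, −0.98 and 0.33. The Ski value in Col1a1-miR-29b cells was thus a larger fall than the fitted −0.38. For Col1a1-miR-29b against empty vector with TGF-β, Ski was at −1.21 by medians and −0.32 in the fit. How reads were assigned to genes to give these counts is not given in the sources used here, and its part in these gaps, and so in the fold changes of these 4 genes, was not tested.

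**Figure D5:**
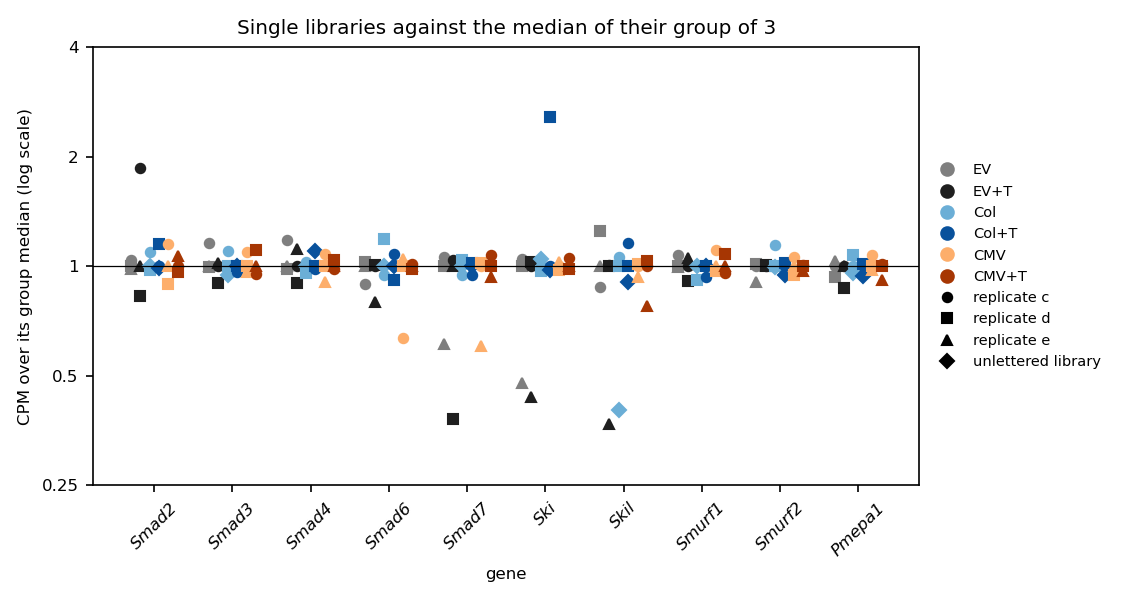
Each library's CPM over the median of its group of 3 (y axis, log scale) for each gene (x axis), with groups as colours and replicates as symbols. Smad3, Smad4, Smurf1, Smurf2 and Pmepa1 stay close to 1, while single libraries of Smad7, Ski and Skil lie near 0.37 to 0.61 and those of Smad2 and Ski at 1.86 and 2.57.

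Genes around the 10 in the pathway were described from lists. Beside the list counts for TGF-β below, 3.88%, 3% and 3.08% of all 21161 genes were called higher with the 3 vectors. Called lower were 425, 280 and 395 of them. Of 11 tested genes known as TGF-β targets, 8, 7 and 7 were called higher with TGF-β in empty vector, Col1a1-miR-29b and CMV-miR-29b cells and none lower. Among them Ccn2, a matricellular growth factor modulator, went from 37.7 ± 3.06 to 126 ± 10.2 CPM (SD, n = 3) in empty vector cells, a log2 fold change of 1.74 (SE 0.10, adjusted p = 1.14e-08). Bhlhe40, a transcriptional repressor, and Itgb5, an integrin subunit, both rose by 0.82. Of 12 receptor-level adaptors and decoys, Ldlrad4 was the only gene called with TGF-β, and it rose with each vector. Ldlrad4, which keeps Smad2 and Smad3 from the receptor as Pmepa1 does, rose by 2.15 (SE 0.13, adjusted p = 2.79e-08) in empty vector cells, by 1.62 with Col1a1-miR-29b and by 1.71 with CMV-miR-29b. With TGF-β present it was lower with Col1a1-miR-29b than with empty vector by 0.62 on the log2 scale (log2 fold change −0.62, adjusted p = 0.004), the same direction as for Pmepa1.

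Of 13 nuclear Smad partners, Tgif1, a co-repressor of Smad complexes, was the only gene called with TGF-β, and it rose by 0.64, 0.57 and 0.73 with the 3 vectors. Of 16 other ligases and deubiquitinases of Smads, Trim33, a ligase that acts on Smad4, was called in empty vector cells at 0.23 (SE 0.05, adjusted p = 0.00752) and in CMV-miR-29b cells at 0.18 (adjusted p = 0.0407). In that list 4 of 16 were called lower with Col1a1-miR-29b against empty vector without TGF-β and 7 of 16 with it, none higher, where 3.7% and 7.63% of all genes were called lower, or 7.26% and 14.3% of those with a mean of at least 10 CPM. The medians of the list were −0.16 and −0.20, and those of all genes 0.02 in both. Trim33 was called in both, at −0.24 and −0.42. Of 12 ligands and receptors, 2, 1 and 2 were called higher with TGF-β, those in empty vector cells being the ligands Tgfb3 at 0.45 and Tgfb1 at 0.35. Of Smad1, Smad5 and Smad9, which carry BMP signals, none was called in any of the 7 comparisons of groups. Of 70 tested other genes of the KEGG TGF-β pathway, 12, 8 and 9 were called higher and 2 lower each time with TGF-β. Of all 21161 genes 820, 634 and 652 were called higher and 425, 280 and 395 lower. The named examples are the activin subunit Inhba at 2.05 and the ligand-activating glycoprotein Thbs1 at 1.32, which rose in empty vector cells, and the proteoglycan Dcn, which fell by 1.11 on the log2 scale. With Col1a1-miR-29b against empty vector 1 of the 70 was called higher and 9 lower without TGF-β, and 1 higher and 16 lower with it, beside the same shares of all genes.

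The genes whose log2 CPM followed each brake most closely over the 18 libraries were named as a description. All libraries share the TGF-β contrast, so a high correlation can follow treatment or other differences between libraries. Which of these it follows was not tested. For Pmepa1 they were the troponin gene Tnnt2 (Pearson's r = 0.995), the secreted Igfbp7 (r = 0.992) and the annexin Anxa5 (r = 0.992), with log2 fold changes of 3.48, 1.66 and 0.63 with TGF-β in empty vector cells. For Skil they were Crispld2 (r = 0.861), Rcn3 (r = 0.852) and Fkbp7 (r = 0.848). For Smad7 they were Amotl2 (r = 0.898), Vgll4 (r = 0.886) and Midn (r = 0.879), of which Midn was called with TGF-β in empty vector cells, at a log2 fold change of 0.36. Amotl2 at 0.237 (adjusted p = 0.0718) and Vgll4 at 0.185 (adjusted p = 0.0847) were not called there.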

How the data were processed

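The authors sequenced poly(A) RNA as stranded paired ends, trimmed reads with cutadapt, mapped them with HISAT2 and assembled them with StringTie. The submitters' notes list mm9, but 52506 of 55450 genes have GRCm38 coordinates identical to GENCODE M21. The deposited counts are whole numbers without normalization; how they were tallied is not given in the sources used here, and 33.8% to 36.7% of counts from 1 to 40 were multiples of 4, where an even spread gives 25%. FPKM was made by the authors, who name DESeq2 for it. The third Col1a1-miR-29b columns carry a letter no title has: their counts were used as unlettered libraries, and their 2 FPKM columns were not used.

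Counts were fitted with edgeR 4.0.16 (R 4.3.3): filterByExpr (minimum count 10), TMM, 6 group means, quasi-likelihood tests. The step was tested on simulated data. Members, lists and tests were chosen with earlier results of these data known. The lists' named genes are at most 3 of those called with TGF-β in empty vector cells, at a mean of at least 1 CPM. For Pmepa1, Skil and Smad7 the 3 most correlated genes are named. Alternatives were DESeq2 1.42.0, its size factors, total counts, a weaker filter, the replicate block (lettered libraries only), the compared groups alone, each library left out and, added after seeing the data, robust dispersions, the lettered libraries with no block, ratios of medians, and length and GC offsets. On average replicate letters showed no pairing of the libraries: deviations from group means correlated at 0.007 over 36 same-letter pairs and at −0.003 over 70 others. P-values measure the spread between these libraries.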

Additional observations from a re-analysis of the deposited data

How the results depend on the processing

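Over the 9 comparisons 16 calls were made on the 10 genes, and the alternatives other than leaving out a library gave from 6 (replicate block) to 19 (DESeq2). The 4 calls for TGF-β with empty vector became 2, Pmepa1 and Smurf1, under DESeq2's size factors, scaling by total counts, the weaker count filter, the replicate block, the compared groups alone, and length and GC offsets. In Col1a1-miR-29b cells 2 became 1 under the replicate block and under the offsets, and 3, with Smad7, under DESeq2 and with the compared groups alone. For Col1a1-miR-29b against empty vector without TGF-β, 2 became 1 with the compared groups alone and 0 under the replicate block. With TGF-β, 5 became 3 with total counts, 2 with the offsets, and 0 with the compared groups alone and under the replicate block. DESeq2 called 1 gene, Pmepa1, in the difference of response. With the 16 lettered libraries alone and no block, added after seeing the data, these 4 counts were 2, 1, 1 and 2. The causes were not tested. Deviations from group means correlated at 0.007 for the same letter and at −0.003 for others on average. What the replicate block does to the values of these 10 genes was not tested. The fit with the replicate block also leaves out the 2 unlettered libraries. Over all genes the calls for Col1a1-miR-29b against empty vector were 1327 in the full fit, 397 with the lettered libraries alone and 161 with the block without TGF-β, and 2738, 1659 and 1152 with it. For TGF-β in Col1a1-miR-29b cells they were 914, 453 and 394.

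With a library left out, the calls on the 10 genes numbered 2 to 4, 2 to 3 and 1 to 4 for TGF-β in empty vector, Col1a1-miR-29b and CMV-miR-29b cells. They numbered 1 to 3 and 0 to 5 for Col1a1-miR-29b against empty vector without and with TGF-β, and 0 to 1 for CMV-miR-29b with TGF-β. Over all genes, DESeq2 called 1759, 1313 and 1496 genes for TGF-β in empty vector, Col1a1-miR-29b and CMV-miR-29b cells, and 2346 and 3519 for Col1a1-miR-29b against empty vector without and with TGF-β. The edgeR counts were 1245, 914, 1047, 1327 and 2738. DESeq2 also called 43 and 274 genes for CMV-miR-29b against empty vector without and with TGF-β, against 1 and 2.

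No called value changed sign. Of the values printed in the report, those below did, in an alternative fit or by ratios of medians. The largest of them were Ski at 0.27 and Skil at 0.17, for CMV-miR-29b against empty vector without and with TGF-β. By ratios of medians, Smad3 with TGF-β in empty vector cells was at 0.009, against −0.10 in the fit. By medians with TGF-β, against empty vector, Skil was at −0.356 and Smad6 at −0.006 with Col1a1-miR-29b, and Skil at −0.076 with CMV-miR-29b. For TGF-β with Col1a1-miR-29b, Smad3 was at −0.0107 under the replicate block, −0.0127 with the lettered libraries alone and −0.00593 without the unlettered untreated library, and Smad6 at −0.0225 with the offsets, −0.000692 with the lettered libraries alone and −0.00143 without that library. Smad6 in CMV-miR-29b cells was at 0.0096 with the offsets. Smurf1 for CMV-miR-29b against empty vector without TGF-β was at −0.000178 with DESeq2's size factors and −0.00017 with DESeq2. With a library left out, Smad6 with TGF-β ran from −0.035 to 0.144 in Col1a1-miR-29b and from −0.208 to 0.108 in CMV-miR-29b cells. For CMV-miR-29b against empty vector without TGF-β, Smad2 ran from −0.0893 to 0.106, Smad6 from −0.0823 to 0.227, Smad7 from −0.23 to 0.192, Ski from −0.0151 to 0.456 and Smurf1 from −0.0683 to 0.0417. For Col1a1-miR-29b, Skil without TGF-β ran from −0.173 to 0.384, the last without the unlettered library and the next highest, 0.202, without empty vector replicate d, and with TGF-β Smad6 ran from −0.0128 to 0.139 and Skil from −0.327 to 0.211. Skil for CMV-miR-29b with TGF-β ran from −0.173 to 0.372. The difference in response of Smad7 with Col1a1-miR-29b, −0.01, was 0.00523 with total counts and 0.003 with the compared groups alone, and ran from −0.336 to 0.222 with a library left out. The median of all genes moved by at most 0.043 in the alternative fits.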
